A study of Mus musculus with 2 samples.

Results

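A set of 9 osteoclast genes was examined for differentially accessible regions (DARs) in and around them, namely Mitf, Spi1, Fos, Fosl2, Prdm1, Nfatc1, Itgb3, Tnfrsf11a and Dcstamp. The genes were chosen by their known roles in osteoclasts and from the deposited DAR tables of this experiment, in which 7 of them are the assigned gene of a DAR and Nfatc1 and Dcstamp of none. Their DARs are the regions assigned to one of the genes or lying within 100 kb of a gene body in GRCm39. This gave 16 of the 5650 DARs, of which 9 were assigned to one of the genes and 7 to a neighbour.

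The regions come from ATAC-seq, in which the Tn5 transposase inserts into open chromatin, on bone marrow-derived monocytes (BMDMs) of C57BL/6 mice (C57BL/6J in the methods). All cells were under osteoclast induction with M-CSF (50 ng/ml) and RANKL (100 ng/ml), 1 library with vector (MR + vector) and 1 with iBRD9 (MR + iBRD9), which inhibits BRD9, a bromodomain subunit of the ncBAF chromatin remodeling complex. Per the study's methods, the mice were 4 to 6 weeks old, each library was made from 5000 cells and the treatment lasted 24 h. The study's reporting summary instead gives 6 weeks for mice used for cell culture. Mice of either sex were used. A dose of 1 μM iBRD9 was chosen for experiments after a dose series, but the dose is not stated separately for these libraries, nor is whether cells of several mice were pooled. A gain DAR is a region the authors listed as more accessible after iBRD9, and a loss DAR one listed as less accessible. With 1 library per group, each gain or loss is a difference between 2 libraries without a replicate check, and no test was made. The tables hold positions and annotations but no read count or fold change, so the depth behind a DAR is unknown and neither the directions nor the cell type could be checked against signal.

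Osteoclasts form from monocytes when RANKL binds its receptor RANK, encoded by Tnfrsf11a, in cells kept alive by M-CSF. PU.1 (Spi1) and MITF prepare the lineage, RANK signaling then induces AP-1 factors such as FOS and FOSL2, and these lead to NFATC1, the master factor of osteoclast differentiation. BLIMP1 (Prdm1) represses genes that hold this programme back. Integrin β3 (Itgb3) attaches the mature cell to bone, and DC-STAMP (Dcstamp) is required for the fusion of precursors into multinucleated cells.

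Of the 16 DARs around the 9 genes, 10 were gain DARs (62.5%, 95% Wilson interval 38.6% to 81.5%) and 6 were loss DARs, where 55.9% of all DARs were gain and 44.1% were loss. Among the 9 assigned DARs, 6 were gain and 3 were loss (gain share 66.7%, 35.4% to 87.9%). Both intervals, which cover counting error only, hold the share of all DARs. They take the DARs as independent, though some are close neighbours and the genes were chosen with these DARs known. The intervals are therefore not a test, and nothing is read from them. By gene, the DARs around Spi1, Fosl2, Prdm1, Nfatc1 and Itgb3 were gain DARs, the DAR of Tnfrsf11a was a loss DAR, and Mitf, Fos and Dcstamp had both kinds. Inside the gene bodies lay 9 DARs, of which 7 were intronic and the other two, in Spi1 and Fosl2, overlapped exons.

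**Figure D1:**
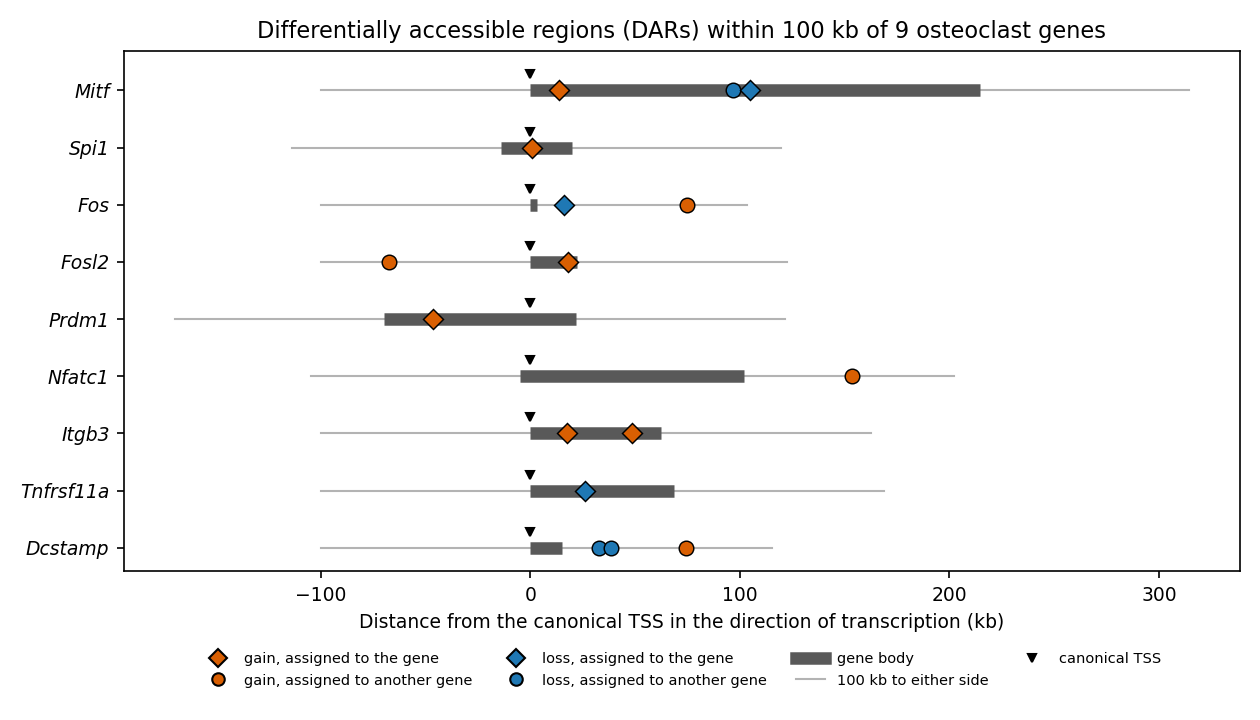
Positions of the 16 DARs relative to the canonical TSS (transcription start site) of each gene, in kb in the direction of transcription, with gain DARs in orange, loss DARs in blue, diamonds for DARs assigned to the gene and circles for DARs assigned to a neighbour. Mitf holds 3 DARs in its body, while the DARs around Nfatc1 and Dcstamp all lie beyond the gene.

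No DAR lay close to the edge of the window. The farthest DARs inside it lay 71.3 kb from Fos, 67.3 kb from Fosl2 and 58.9 kb from Dcstamp. The nearest ones outside it were gain DARs 169.2 kb from Mitf and 183.7 kb from Dcstamp, followed by a loss DAR 256.6 kb from Mitf.

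All 9 genes had a DAR within 100 kb, against 46.9% of 21603 protein-coding genes, and 7 of 9 were the assigned gene of a DAR, against 11.1%. Since the genes were selected on these tables, nothing is read from these counts. Mitf and Dcstamp had 3 DARs each, a count that 3.12% of protein-coding genes reach exactly. Fos, Fosl2 and Itgb3 had 2 and the other four had 1, while the median protein-coding gene had 0. Per Mb of window, the genes ranged from 3.26 DARs for Nfatc1 to 13.9 DARs for Dcstamp, with a median of 7.24. Gene length sets the window, so the 3 DARs of Mitf (window 414.4 kb) come to 7.24 DARs per Mb, fewer per Mb than the 2 DARs of Fos (window 203.4 kb, 9.83 DARs per Mb).

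**Figure D2:**
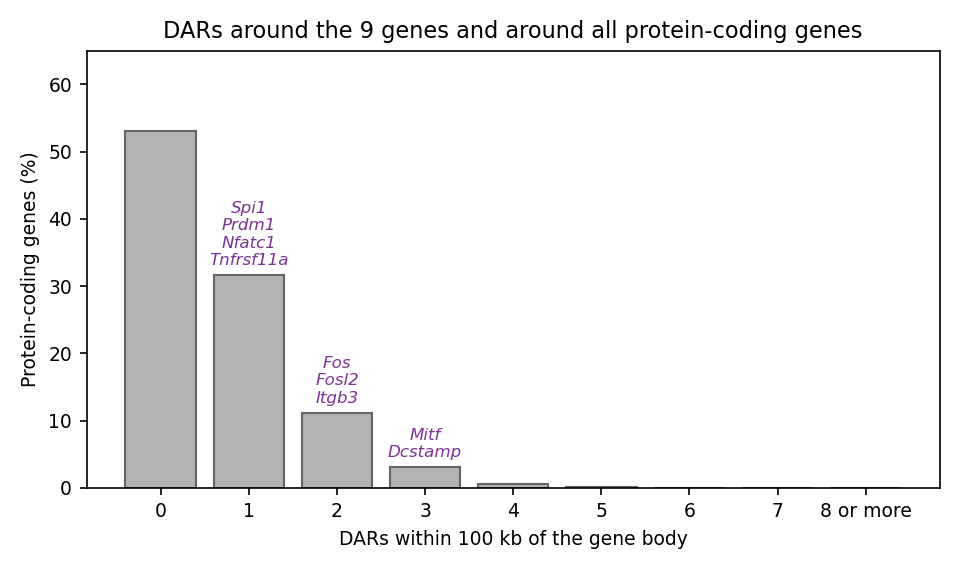
Share of protein-coding genes (vertical axis, %) by the number of DARs within 100 kb of the gene body (horizontal axis), with the names of the 9 genes above the bar of their own count. The genes stand at 1, 2 or 3 DARs, and 53.1% of protein-coding genes stand at 0.

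Among the receptors, Tnfrsf11a (chr1:105708358-105777170, plus strand) carried 1 loss DAR of 200 bp. It lay at chr1:105734638-105734837, in intron 1 of 9 of the canonical transcript, 26.2 kb downstream of the canonical TSS. The deposited table gives it as 12.8 kb upstream of a TSS, because it was assigned through Tnfrsf11a-202, a transcript with a retained intron that starts inside the gene. Its 7 CpG dinucleotides stand against a median of 2 in all DARs, in counts not scaled to width. The DARs of Spi1 (9), near Nfatc1 (10) and the widest one near Dcstamp (8) held more. The sequence is shown since it is the DAR of the RANK gene itself, with matches to the forkhead letters TAAACA (read on the minus strand) and to the E-box letters TCANGTG in capitals, on the plus strand of GRCm39.
Tnfrsf11a loss DAR: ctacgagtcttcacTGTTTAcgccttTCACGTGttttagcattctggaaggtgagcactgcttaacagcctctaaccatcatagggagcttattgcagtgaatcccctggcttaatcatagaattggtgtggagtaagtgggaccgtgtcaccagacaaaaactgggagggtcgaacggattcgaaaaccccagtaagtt

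Itgb3 (chr11:104498826-104561302, plus strand) carried 2 gain DARs and no loss DAR. The first, of 211 bp at chr11:104516365-104516575, lay in intron 2 of 14, 17.5 kb downstream of the canonical TSS. The second, of 180 bp at chr11:104547203-104547382, lay in intron 10 of 14, 48.4 kb downstream. Between them, over 30.6 kb, 1 of the authors' region numbers was skipped. The first DAR held the same E-box letters as the Tnfrsf11a DAR, on the other strand and again with the core CACGTG, which is why it is shown. These were the only DARs of the 16 with this match, and they were of opposite direction.
Itgb3 gain DAR in intron 2: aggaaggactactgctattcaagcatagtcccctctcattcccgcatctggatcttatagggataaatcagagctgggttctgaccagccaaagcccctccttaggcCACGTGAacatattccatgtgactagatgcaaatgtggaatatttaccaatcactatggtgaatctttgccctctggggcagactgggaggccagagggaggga

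Dcstamp (chr15:39609214-39624334, plus strand) had no DAR of its own, but 3 DARs lay downstream of it, all in introns of its neighbour Dpys, which encodes dihydropyrimidinase. The nearest was a loss DAR of 701 bp at chr15:39641670-39642370, 17.3 kb beyond the end of Dcstamp and 32.5 kb downstream of its TSS. A second loss DAR of 258 bp followed at chr15:39647399-39647656, 5.03 kb farther on, and a gain DAR of 259 bp at chr15:39683194-39683452, 58.9 kb from Dcstamp. The deposited table assigned both loss DARs to Dpys and the gain DAR to the noncoding gene Gm16291. All 3 were closer to a TSS of Dpys than to that of Dcstamp. The 701 bp DAR was the widest around the 9 genes, and only 9 of all DARs (0.159%) were as wide or wider, 3 of them loss DARs. It held 2 AP-1 matches (TGANTCA), 1 match to the interferon response letters GAAANNGAA and 1 to the STAT letters TTCNNNGAA. The 300 bp around the AP-1 matches (chr15:39641999-39642298) are shown, with the AP-1 matches and, between them, the interferon response match on the minus strand in capitals.
Dcstamp downstream loss DAR, part: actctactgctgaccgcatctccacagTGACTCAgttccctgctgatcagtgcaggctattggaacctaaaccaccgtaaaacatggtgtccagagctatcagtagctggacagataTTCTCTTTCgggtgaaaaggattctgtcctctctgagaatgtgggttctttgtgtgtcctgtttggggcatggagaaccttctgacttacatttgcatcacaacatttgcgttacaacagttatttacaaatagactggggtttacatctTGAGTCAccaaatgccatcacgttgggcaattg

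Among the transcription factors, Mitf (chr6:97783950-97998323, plus strand) was the gene with DARs of both directions in its body. A gain DAR of 219 bp at chr6:97797689-97797907 lay in intron 1 of 9 of the canonical transcript Mitf-202, 13.7 kb downstream of its TSS. A loss DAR of 163 bp at chr6:97880566-97880728 lay in the same intron 96.6 kb downstream, and a loss DAR of 170 bp at chr6:97888782-97888951 followed 8.05 kb after it. Mitf is transcribed from several promoters that give isoforms with different first exons, and the isoform starts place the DARs differently. The gain DAR lay 13.7 kb downstream of the starts at the upstream end of the gene, coding and noncoding. Both loss DARs were nearest to the start of Mitf-203, 26.0 kb and 17.8 kb upstream of it, and lay 37.2 kb and 28.9 kb upstream of that of Mitf-204. The last coding starts, from Mitf-201 on, were 79.8 kb or more downstream of the second loss DAR. The deposited table assigned the first loss DAR to Gm15531, a processed pseudogene inside the intron, so that 2 DARs are listed under Mitf but 3 lie in its body.

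The 3 Mitf DARs are shown together, since Mitf was the one gene of the 9 with gain and loss in a single intron, on the plus strand of GRCm39. Capitals mark a match to the NF-kB letters GGGANTTTC in the gain DAR and a forkhead match on the minus strand in the first loss DAR, while the second loss DAR matched none of the 9 motifs searched.
Mitf gain DAR: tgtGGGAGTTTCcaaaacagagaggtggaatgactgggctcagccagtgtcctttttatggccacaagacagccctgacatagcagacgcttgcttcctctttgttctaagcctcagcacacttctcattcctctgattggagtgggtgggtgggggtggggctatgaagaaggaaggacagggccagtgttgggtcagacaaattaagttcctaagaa
Mitf first loss DAR: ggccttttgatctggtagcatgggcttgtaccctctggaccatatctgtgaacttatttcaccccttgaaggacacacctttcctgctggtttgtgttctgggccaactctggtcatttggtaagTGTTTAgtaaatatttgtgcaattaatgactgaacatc
Mitf second loss DAR: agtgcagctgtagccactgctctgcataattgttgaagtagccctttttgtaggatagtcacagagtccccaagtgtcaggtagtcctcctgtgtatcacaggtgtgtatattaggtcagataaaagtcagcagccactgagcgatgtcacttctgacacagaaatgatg

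Spi1 (chr2:90912562-90946101, plus strand) had 1 gain DAR of 218 bp at chr2:90927002-90927219 and no other DAR within 100 kb. The deposited table lists its distance as 0 because it covers the start of Spi1-203, but the canonical transcript Spi1-201 starts 561 bp upstream of the DAR. All 218 bp lay in exon 1 of 5 of Spi1-201, in its 5′ UTR, and the starts of 3 annotated transcripts (Spi1-203, Spi1-207 and Spi1-208) fell inside the DAR. The earliest annotated start of the gene was 14.4 kb upstream of the DAR. With 62.4% GC and 9 CpG dinucleotides it was the most GC-rich DAR around the 9 genes, and 7.36% of all DARs were as GC-rich or more. It was also the only DAR of the 9 genes within 1 kb of a canonical TSS, which 3.37% of protein-coding genes have.

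Fos (chr12:85520658-85524047, plus strand), a short gene of 3.39 kb, had no DAR in its body. A loss DAR of 218 bp lay between genes at chr12:85536775-85536992, 12.7 kb beyond the end of the gene and 16.1 kb downstream of its canonical TSS, and was assigned to Fos in the deposited table. A gain DAR of 150 bp, the smallest width in the tables, followed at chr12:85595346-85595495, 71.3 kb from Fos. The deposited table classes it as distal intergenic and assigns it to the noncoding gene Gm56557. In GENCODE M39 it lay in an intron of Gm56557. For that DAR the nearest start of a protein-coding transcript was that of Jdp2, 49520 bp away, which encodes a repressor of AP-1. Jdp2 is named here after its distance was seen. The loss DAR, shown as the DAR assigned to the AP-1 gene itself, held none of the motifs searched, AP-1 included.
Fos loss DAR: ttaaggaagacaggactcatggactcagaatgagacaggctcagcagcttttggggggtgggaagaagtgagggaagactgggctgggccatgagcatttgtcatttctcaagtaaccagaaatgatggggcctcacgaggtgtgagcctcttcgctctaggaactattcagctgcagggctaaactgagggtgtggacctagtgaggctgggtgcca

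Fosl2 (chr5:32292707-32315186, plus strand) had 2 gain DARs. The first, of 181 bp at chr5:32310499-32310679, lay in the last of 4 exons, 17.8 kb downstream of the TSS, and overlapped the last 32 bp of the coding sequence (the stop codon not counted) before running into the 3′ UTR, the class the deposited table gives it. The second, of 150 bp at chr5:32225252-32225401, lay 67.3 kb upstream of Fosl2, in intron 11 of 11 of Babam2, a gene of the BRCA1-A complex, to which it was assigned. No protein-coding start in the annotation was nearer to it than that of Fosl2.

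Prdm1 (chr10:44313171-44404497, minus strand) had 1 gain DAR of 156 bp at chr10:44381382-44381537. The deposited table places it in intron 1 of 3, 23.0 kb downstream of the start of Prdm1-203, a transcript with a retained intron. Relative to the canonical coding transcript Prdm1-202, the DAR was not intronic but 46.6 kb upstream of the TSS. It is shown as a DAR that changes from intragenic to upstream with the transcript, and it matched none of the motifs.
Prdm1 gain DAR: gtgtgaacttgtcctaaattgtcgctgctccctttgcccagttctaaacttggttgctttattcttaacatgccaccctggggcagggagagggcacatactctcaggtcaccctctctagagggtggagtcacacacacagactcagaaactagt

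Nfatc1 (chr18:80649266-80756295, minus strand) had no DAR in its body. A gain DAR of 391 bp at chr18:80597862-80598252 lay 51.0 kb beyond its 3′ end and 153.1 kb downstream of its canonical TSS, and was assigned to the noncoding gene Gm2176. The nearest protein-coding start was that of Ctdp1, a phosphatase of RNA polymerase II, 84707 bp away. This DAR was the second widest around the 9 genes and held 10 CpG dinucleotides, the most of the 16.

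The transcript used for the assignment moved the DARs relative to their gene. Of the 9 assigned DARs, 1 was assigned through the canonical transcript of its gene and 6 through transcripts without a coding sequence in the annotation. Over all 2743 DARs assigned to a transcript of a protein-coding gene, 31.3% had the canonical transcript and 64.4% a coding one. For 4 of the 9, the sign of the distance changed when the canonical TSS was used. The Mitf gain DAR, the one assigned through the canonical transcript, is listed at 13670 bp against 13739 bp here. The deposited table puts the start of that transcript, Mitf-202, at 97784019, and GENCODE M39 puts it at 97783950 and that of the noncoding Mitf-206 at 97784019. The second Mitf loss DAR, the first Itgb3 DAR and the Tnfrsf11a DAR went from upstream to downstream, and the Prdm1 DAR from downstream to upstream.

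**Figure D3:**
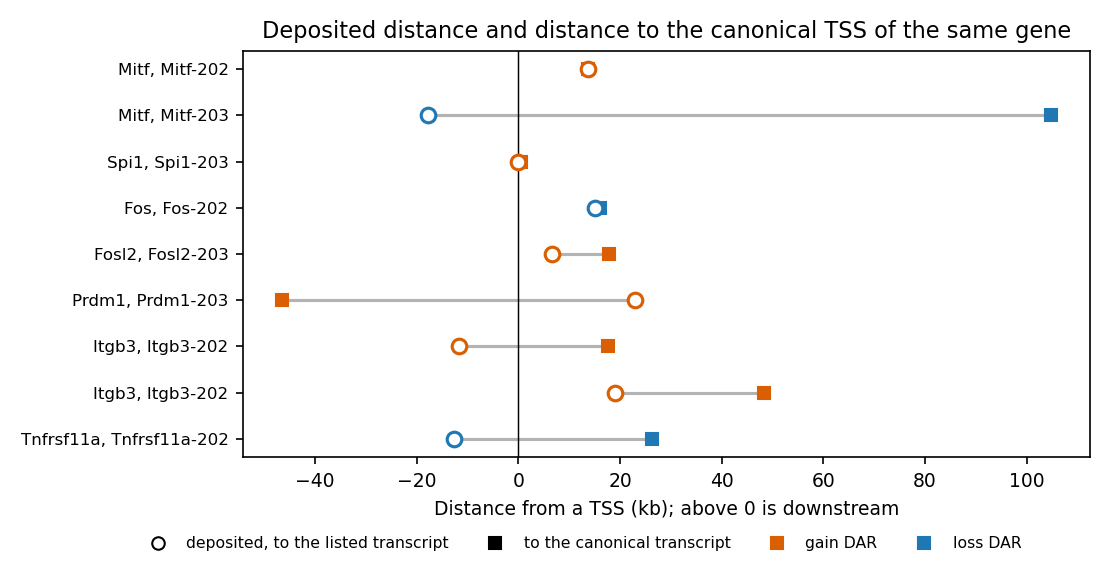
Distance in kb of the 9 assigned DARs from the TSS of the listed transcript (open circles) and from the canonical TSS of the same gene (squares), with gain DARs in orange and loss DARs in blue. The points nearly coincide for the Mitf gain DAR, Spi1 and Fos, and lie on opposite sides of 0 for 4 DARs.

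Each DAR carries a region number, and these numbers increase with position on every chromosome in the tables. Numbers skipped between DARs were read as regions not listed as DARs. How the numbers were given is not stated, and the skipped ones have no position in the tables. The highest number, 21333, is larger than the merged peaks of both libraries can be from the peak counts in the study's text, so some skipped numbers may not stand for a merged peak. The counts given here are therefore of numbers, not of measured regions. Between the DARs that flank each window on the outside, the 9 genes had 90 region numbers, of which 16 were DARs (17.8%) and 74 were not listed. Because each such stretch ends just before the next DAR, its share cannot be set against the share over all numbers (5650 of 21333, 26.5%). The same count for all protein-coding genes, with overlapping stretches counted for each gene, gave 7.21%, genes without a DAR in the window included. Since the 9 genes were chosen with their DARs known, nothing is read from the difference between 17.8% and 7.21%.

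Of the genes examined, Mitf had the highest share in this count. Of the 4 numbers around it, 3 were DARs (75.0%), and the median for the 672 protein-coding genes with 3 DARs within 100 kb was 27.3%, with 25 of those genes (3.72%, Mitf included) at the Mitf share or above. Mitf was selected with these same DARs known, and the genes compared were not matched for length. Nothing is therefore read from this rank. Numbers 17138 to 17141 were all DARs, so that between the gain DAR in intron 1 and the next gain DAR beyond the gene, at 98167524, no number was skipped. Over that stretch the directions ran gain, loss, loss and gain. The 1 number not listed as a DAR lay between the gain DAR and the preceding DAR, a stretch of 270.4 kb that includes the TSS of Mitf-202.

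Dcstamp had the same number of DARs but 18 numbers (16.7%), 15 of them not listed as DARs. Its 3 DARs had consecutive numbers, and 11 numbers lay in the 1202.7 kb that precede them and include its TSS. The shares of the other genes ran from 11.1% for Prdm1, Nfatc1 and Tnfrsf11a to 20.0% for Spi1. For protein-coding genes with 1 DAR within 100 kb the median was 11.1%, equal to Prdm1, Nfatc1 and Tnfrsf11a and below Spi1. For those with 2 DARs it was 20.0%, and Fos (15.4%), Fosl2 (18.2%) and Itgb3 (16.7%) lay below it. For those with 3 DARs it was 27.3%, above the share of Dcstamp. These differences were not tested. The 2 DARs of Fosl2 also had consecutive numbers, with none skipped over the 85.1 kb between them, which include the Fosl2 TSS. A TSS between DARs of consecutive numbers was found for 1 of the 9 genes and for 6.53% of protein-coding genes. Of the 7 pairs of neighbouring DARs inside a window, 6 had consecutive numbers and 4 had the same direction, where 68.6% and 48.5% of all 1289 neighbouring pairs up to 100 kb apart did.

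**Figure D4:**
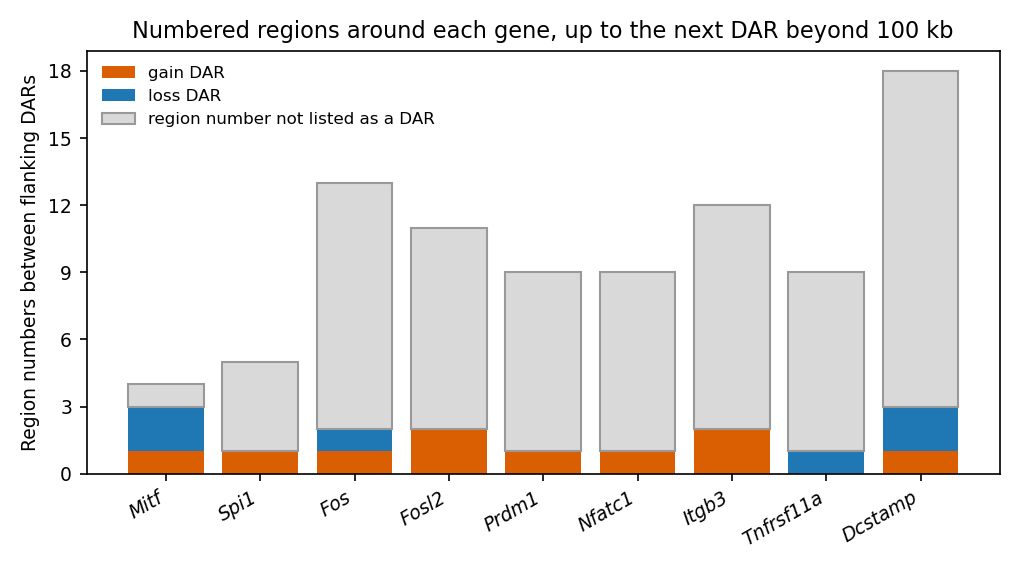
Region numbers (vertical axis, count) between the DARs that flank each window, for each of the 9 genes, with gain DARs in orange, loss DARs in blue and numbers not listed as DARs in grey. Mitf has 3 DARs of 4 numbers, and the other genes have 1 to 3 DARs of 5 to 18 numbers.

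In width and base composition the 16 DARs lay within the range of the rest. Their median width was 205.5 bp against 186 bp over all DARs (quartiles 156 and 226 bp), and 2 of them had the smallest width of 150 bp, as did 20.4% of all DARs. Their median GC content was 49.6% against 50.0%, from 37.2% in the 258 bp loss DAR downstream of Dcstamp to 62.4% in the Spi1 DAR. The median number of CpG dinucleotides was 2 in both.

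The 16 DARs were searched on both strands for 9 short motifs of factors that act in osteoclasts or in interferon signaling. At least 1 motif was present in 6 of them (37.5%), 3 gain and 3 loss, and in 40.7% of all DARs. Forkhead letters TAAACA were in 3 DARs (1 of Mitf, that of Tnfrsf11a and the gain DAR near Dcstamp), against 8.97% of all DARs, and E-box letters TCANGTG in 2, against 11.4%. AP-1 letters TGANTCA were in 1 of the 16 and in 10.8% of all DARs, STAT letters TTCNNNGAA in 1 and 4.64%, and interferon response letters GAAANNGAA in 1 and 4.71%. The NF-kB letters GGGANTTTC, which 0.85% of all DARs held, were in the Mitf gain DAR. The PU.1 type letters GAGGAAGT, the NFAT letters TGGAAAA and the RUNX letters TGTGGTT were in none of the 16, and in 3.66%, 3.56% and 4.74% of all DARs. STAT and interferon response matches can overlap. A match is a description of these letters and not a measure of binding.

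The wider RANKL pathway was read from a list of 74 further genes by role. Of these, 17 (23.0%) were the assigned gene of a DAR, 11 with a gain DAR and 6 with a loss DAR, each with 1 DAR. Over all features, 11.1% of protein-coding genes were the assigned gene of a DAR and 55.9% of DARs were gain. The list was chosen with earlier results of these data known, so nothing is read from its shares, in all or by role. Receptors and adaptors gave 3 gain genes and 1 loss gene of 12 (33.3% assigned, against 11.1%). Gain DARs lay 19.1 kb upstream of Tyrobp, the adaptor DAP12 that gives osteoclasts their costimulatory signal, 6.22 kb upstream of Sirpa, a receptor for CD47, and 21.2 kb downstream of the TSS of Ifngr1, an interferon-γ receptor gene. The loss DAR lay 96.5 kb downstream of the TSS of Cd47.

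Signalling genes gave 5 gain genes and 1 loss gene of 24 (25.0% assigned, against 11.1%), where 55.9% of all DARs were gain. The gain genes included Syk, the kinase downstream of DAP12 (intron 1 of 13), Plcg2, a phospholipase that raises calcium (intron 2 of 32), and Grb2, an adaptor, where the DAR covered the start of Grb2-203, 8.94 kb downstream of the canonical TSS. Pik3r1 (113.4 kb downstream of its TSS) and Map3k7, the kinase TAK1 (51.4 kb upstream), had intergenic gain DARs. The loss DAR covered the canonical TSS of Tec, a kinase that acts with BTK in RANK signaling.

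Of 25 further transcription factors, 3 had a gain DAR and 1 a loss DAR (4 of 25 assigned, against 11.1% of protein-coding genes), with the same 55.9% gain share over all DARs. Tfeb and Tfec had gain DARs in their first introns, 22.9 kb and 14.7 kb downstream of the canonical TSS, and Lhx2 had one 29.3 kb upstream. The Tfeb DAR is listed 746 bp downstream of the start of Tfeb-206, a coding transcript. For Rela, an NF-kB subunit, the DAR was a loss DAR that ended 175 bp before the TSS. Among 13 genes of fusion and resorption, 3 had a loss DAR and 0 a gain DAR (23.1% assigned, against 11.1%), where 44.1% of all DARs were loss. The loss DARs lay in intron 5 of 11 of Plekhm1, which acts in vesicle traffic to the ruffled border, 1049 bp upstream of the TSS of Siglec15, a receptor of fusing precursors, and 68.1 kb downstream of the TSS of Cd9, a tetraspanin. With a DAR at any place within 100 kb counted instead, 38 of the 74 genes (51.4%) had one, against 46.9% of protein-coding genes. By role, this was 66.7% of receptors and adaptors and 66.7% of signalling genes. It was 36.0% of transcription factors and 38.5% of fusion and resorption genes, each below the 46.9%.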

How the data were processed

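Per the study's methods and the labels, the authors trimmed the reads (cutadapt 1.9.1 in the submitters' processing notes), aligned them with Bowtie2 2.2.6 to GRCm39, removed duplicates and sampled the libraries to a common depth with Picard 1.126, called peaks with MACS3 on read pairs and merged them. DARs are merged regions whose log2 fold change was 0.5 or more in either direction. The methods state no p-value for them, though a figure legend of the study names a negative binomial distribution for its plot of DARs. The deposited tables hold 3161 gain and 2489 loss DARs with positions, widths and distances in bp, but no counts or signal, so the depth behind each DAR is unknown. The loss count is that of the study's text, and the gain count is slightly below the one given there.

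DARs were overlapped with gene bodies of GENCODE M39 (GRCm39, the build of the files), extended by 100 kb. Of 5139 listed transcripts, 5067 were in it, and 4817 of 4906 gene identifiers had a symbol. The canonical TSS is that of the transcript tagged as Ensembl canonical, and distances run from the nearer edge. Sequences and motifs, as exact matches, were read from GRCm39. Software was pysam 0.24.0, pandas 2.3.3, numpy 2.4.6, scipy 1.17.1 and matplotlib 3.10.9 under Python 3.11.15. Window counts and motif matching were checked on 500 simulated windows and 3600 simulated sequences and were right in 100% of both.

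The genes and lists were chosen with earlier results of these data known. The text names the 9 genes, the assigned or host genes of their DARs, and pathway genes with an assigned DAR. Ctdp1 and Jdp2, and the comparisons of canonical distances, neighbours and gene families, were added after values were seen.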

Additional observations from a re-analysis of the deposited data

How the results depend on the processing

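No paired analysis was possible because each group has 1 library. Of 24 alternatives, 22 stayed within the interval or within 1.5 times of the reported value. The count ran from 12 DARs (gain share 50.0%) in windows of 50 kb to 18 (66.7%) in windows of 200 kb, and 8 or 9 genes had a DAR. The other alternatives were windows around the TSS, the midpoint of the DAR, DARs wider than 150 bp, merged DARs, the nearest protein-coding TSS (10 DARs, 60.0%) and a motif window of 200 bp. Counting numbers only from the first to the last DAR inside a window raised the share listed as DARs from 17.8% to 92.3% (12 of 13 numbers, 5 genes), and to 62.7% for protein-coding genes with more than 1 DAR, since such stretches begin and end with a DAR. Counting any DAR within 100 kb raised the pathway genes from 17 to 38, as a wider criterion must. A stricter threshold for DARs was not run, since no fold change was at hand. How far depth limits these calls is unknown, and a gene without a DAR may still have regions that did not change or were not called.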

Other observations

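Of the factors among the 9 genes, Mitf, Fos, Fosl2 and Nfatc1 belong to families of which further members were looked up. This was done after the values of the 9 were seen. The families of Spi1 and Prdm1 were not looked up. Over all protein-coding genes, 11.1% were the assigned gene of a DAR and 46.9% had a DAR within 100 kb, and 55.9% of all DARs were gain. Of the 4 genes of the MiT/TFE family, which bind E-boxes, 3 (Mitf, Tfeb and Tfec) were the assigned gene of a gain DAR in intron 1, while Tfe3 had no DAR within 100 kb. The loss DARs of the family were the 2 in Mitf. Of 9 AP-1 genes, 2 (Fos and Fosl2) were assigned a DAR and 5 had one within 100 kb. Within 100 kb, Junb had 1 gain DAR and Jund 1 gain and 1 loss DAR, and Fosb, Fosl1, Jun and Batf had 0. Jdp2 had 1 gain DAR there, the same region that lies 71.3 kb from Fos. Of the 3 NFAT genes looked up (Nfatc1, Nfatc2 and Nfatc3), none was assigned a DAR, and Nfatc2 had 1 loss DAR within 100 kb where Nfatc1 had 1 gain DAR. These counts of a few genes, from 1 library per group, were not tested, and nothing is read from them.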
